A study of Mus musculus with 8 samples.

Results

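The genes described here are 10 genes of skeletal muscle formation: the myogenic regulatory factors Myf5, Myf6, Myod1 and Myog, the cofactor gene Mef2c, and 5 genes of the embryonic muscle fibre, Myh3, Myh8, Tnnc2, Tnni2 and Acta1. They were chosen by name, with earlier results of the same genotype comparison in view, and each matched 1 of the 55421 rows of the table. The tissue was the vagal region, level with somites 1 to 7, of E9.5 mouse embryos. Each genotype had 4 libraries. The mutants, trex below, carried the genotype Rdh10(trex/trex), and the controls, wt below, were wild type. The Rdh10 enzyme oxidizes retinol to retinaldehyde, from which embryos make retinoic acid. The labels give neither strain nor sex, nor whether a library is 1 embryo or a pool, so each p-value reflects only how these libraries vary, which may be technical in part. Values are TPM, transcript abundance scaled by gene length and by the library total.

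Skeletal muscle of the trunk arises in the somites. Cells of the dermomyotome, marked by Pax3, enter the myotome, where the myogenic regulatory factors, basic helix-loop-helix proteins that bind the E-box together with E proteins, switch on muscle genes. Myf5 acts early and sets the myogenic fate, Myod1 and Myf6 follow with partly shared roles, and Myog drives terminal differentiation, with Mef2c as a partner. The first fibres then make embryonic myosin, troponins and actin.

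Promoter sequence is shown for 4 genes that behaved differently below. Myf5 was not lower in trex, and the levels of Myog and Myh3 in trex and wt did not overlap. In each genotype Acta1 was highest in the library with the highest level of heart markers. RefSeq's promoter table (GRCm38.p6, the mm10 assembly) held 7 of the 10 genes. Each line is the 250 bases before the start given there, 5′ to 3′ on the gene's strand. For Myog and Acta1 that start differs from the start in GENCODE, the annotation used for the coordinates below. The Myog window runs past its GENCODE start at 134289989. Capitals mark the E-box (CANNTG) and, in Acta1, also the CArG box, the binding sequence of serum response factor. The windows are chr10:107486135-107486384 (minus strand) for Myf5, chr1:134289754-134290003 (plus) for Myog, chr11:67078050-67078299 (plus) for Myh3 and chr8:123894776-123895025 (minus) for Acta1.
Myf5: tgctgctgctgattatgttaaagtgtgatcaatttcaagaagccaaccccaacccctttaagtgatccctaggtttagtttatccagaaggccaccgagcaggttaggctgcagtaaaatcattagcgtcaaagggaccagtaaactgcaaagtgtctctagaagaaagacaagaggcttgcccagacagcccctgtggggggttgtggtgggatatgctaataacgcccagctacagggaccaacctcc
Myog: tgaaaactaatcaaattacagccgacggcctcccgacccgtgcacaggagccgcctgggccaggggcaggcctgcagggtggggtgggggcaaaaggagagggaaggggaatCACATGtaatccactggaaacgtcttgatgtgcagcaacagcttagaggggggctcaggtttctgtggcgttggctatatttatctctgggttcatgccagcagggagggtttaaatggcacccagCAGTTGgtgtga
Myh3: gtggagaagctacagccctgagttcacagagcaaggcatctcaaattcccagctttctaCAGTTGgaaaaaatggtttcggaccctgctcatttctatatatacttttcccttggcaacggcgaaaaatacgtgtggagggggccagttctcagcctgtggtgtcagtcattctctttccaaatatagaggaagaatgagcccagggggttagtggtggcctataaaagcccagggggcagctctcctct
Acta1: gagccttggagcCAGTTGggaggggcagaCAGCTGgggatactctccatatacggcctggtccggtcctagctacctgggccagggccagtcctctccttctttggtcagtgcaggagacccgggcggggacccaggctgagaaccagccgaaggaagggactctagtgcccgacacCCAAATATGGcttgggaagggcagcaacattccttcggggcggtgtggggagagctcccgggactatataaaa
The E-box and the CArG box read the same pattern on both strands. Myf5 held no E-box in this window. In Myog there were 2, CACATG at 138 and CAGTTG at 12 bases before the start, and in Myh3 there was 1, CAGTTG at 191 bases. By the GENCODE start the CAGTTG of Myog lies within the gene. The Acta1 window held CAGTTG at 238 bases, CAGCTG at 221 bases and the CArG box CCAAATATGG at 73 bases. An E-box occurred in 66.2% of 32851 promoters of this length, CAGCTG in 13.0%, and the CArG box in 1.5%. None of these 4 windows held a match to the 10-letter MEF2 consensus, which 2.9% of promoters held. Matches of letters are a description of the sequence and show no binding. A missing match to this 10-letter pattern likewise does not show that a window lacks a MEF2 site.

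Whole reads recovered from the TPM values came to between 20928981 and 23648646 per library. Between the genotypes 1369 of 15717 tested genes (8.71%) were called at an adjusted p below 0.05 in limma, 592 of them lower in trex (3.77%) and 777 higher (4.94%). The split depended on the scaling, with 739 lower and 633 higher under quantile normalization, and 820 lower and 642 higher with voom on the recovered reads. Of the 8 libraries, 2 of wt and none of trex held Y-linked transcripts above a summed 1 TPM. The mean log2(TPM + 1) of 19 cardiomyocyte markers spanned 2.44 to 4.86 in the trex libraries and 2.24 to 4.56 in the wt libraries. The mean of 9 caudal Hox genes was 4.77 to 5.12 in trex and 1.59 to 3.61 in wt. The mean of low oxygen and glycolysis genes (17 table rows) was 8.14, 6.38, 7.19 and 7.64 in trex replicates 1 to 4 and 5.88 to 5.96 in wt. The part of these library differences in the muscle results was not tested unless a value is given beside them. In such tissue fewer muscle cells and less RNA per cell cannot be told apart.

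**Figure D1:**
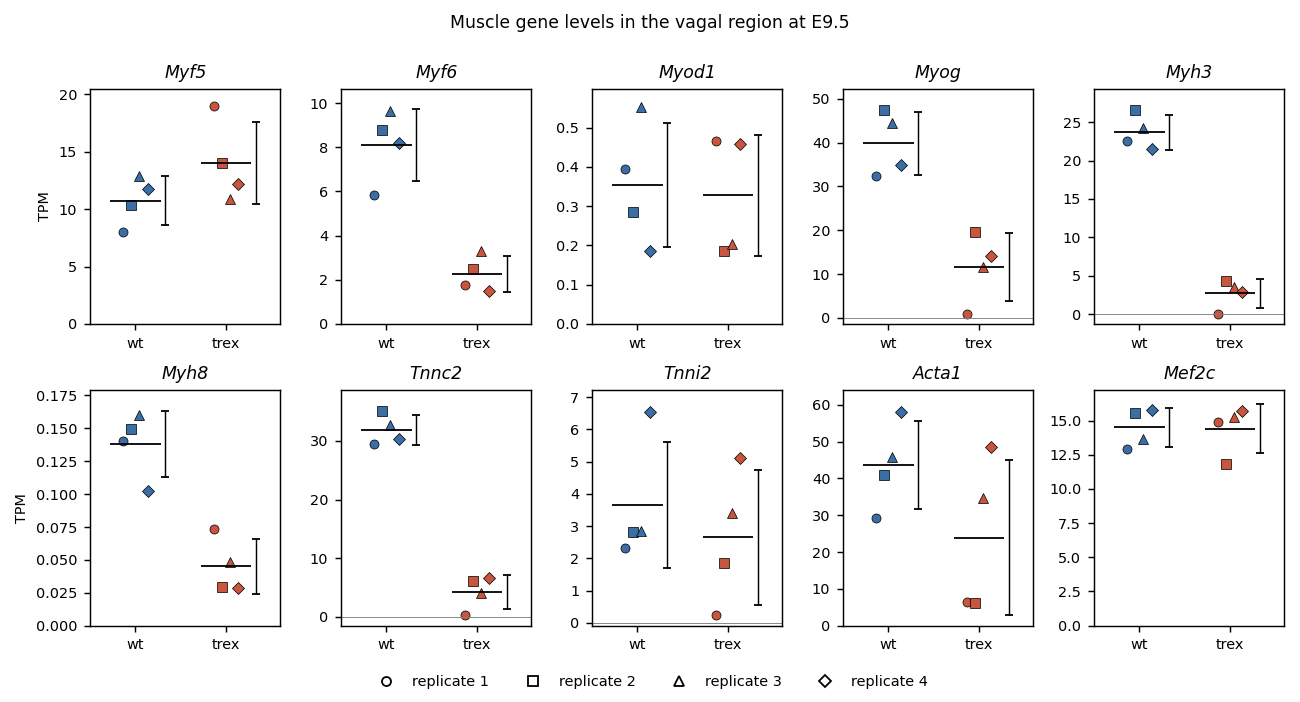
TPM of the 10 genes in each library (linear axes, one panel per gene). Symbols are replicates, the line is the group mean and the bar beside it the SD of 4 libraries. Myf6, Myog, Myh3, Myh8 and Tnnc2 separate the groups, while Myf5, Myod1, Tnni2, Acta1 and Mef2c overlap.

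Because the genes were picked with this contrast in view, what follows gives its differences and adjusted p-values as a description of these libraries. Of the 10 genes 8 had a mean of at least 1 TPM and were tested, and Myod1 and Myh8 were not. Of the tested genes limma called 3 lower, 0 higher and 5 neither way (3.77% lower and 4.94% higher over all tested genes). With voom 0 were called higher as well. At an unadjusted p below 0.05, 0 were higher by either tool and 4 (limma) or 5 (voom) were lower. Of all tested genes 11.6% were lower at that unadjusted threshold in limma and 16.5% in voom. The shares higher were 17.4% in limma and 14% in voom. Groups did not overlap for 4 of the 8, against 21.8% of tested genes (8.95% with trex lower). The median log2 difference of the 8 was -1.40, and over all tested genes it was 0.04.

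Myf5, the first of the factors, was not lower in trex. The gene (ENSMUSG00000000435, chromosome 10, 107482908 to 107486134, mm10) stood at 19.0, 14.0, 10.9 and 12.2 TPM in trex replicates 1 to 4 and at 8.04, 10.3, 12.9 and 11.7 TPM in wt replicates 1 to 4. Replicate 1 of trex was the highest library and the other 3 trex libraries lay within or just above the wt range. The means were 14.0 ± 3.56 and 10.8 ± 2.09 TPM (SD, n = 4 each), the log2 difference was 0.34 ± 0.19 (SE) and limma gave an adjusted p of 0.249.

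Myf6, its neighbour, was lower. Myf6 (also called Mrf4) lies 6718 bases from Myf5 on chromosome 10 (107492853 to 107494737). It measured 1.78, 2.48, 3.28 and 1.48 TPM in trex against 5.83, 8.80, 9.63 and 8.175 TPM in wt, and no trex library reached the lowest wt library. The mean fell 3.59-fold, from 8.11 ± 1.63 to 2.26 ± 0.80 TPM (log2 difference -1.496 ± 0.21, adjusted p = 0.00777). The ratio of Myf6 to Myf5 TPM was 0.094 to 0.302 in trex and 0.697 to 0.852 in wt. The ratio of these neighbouring genes did not overlap between the groups.

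Myod1 was at the edge of detection in both groups. It stood between 0.187 and 0.466 TPM in trex and between 0.185 and 0.552 TPM in wt, on 2 to 6 reads per library. Summed over the libraries there were 14 reads in trex and 15 in wt, a ratio of 0.933 with an exact 95% interval (Clopper-Pearson, given the total) of 0.417 to 2.07. The interval covers counting error only, and differences within it were not detectable at this depth.

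Myog, the factor of terminal differentiation, was lower in every trex library and nearly absent from one. It measured 0.928, 19.6, 11.6 and 14.1 TPM in trex against 32.5, 47.5, 44.45 and 34.9 TPM in wt. Replicate 1 of trex held 8 reads of the gene and the other libraries 92 to 403. The means were 11.6 ± 7.85 and 39.8 ± 7.29 TPM, a 3.44-fold difference (log2 difference -2.11 ± 0.65). The gene was not called, with an adjusted p of 0.078 in limma. Without trex replicate 1 the adjusted p was 0.00808 and without trex replicate 2 it was 0.0376. It was 0.0416 with a pseudocount of 5 and 0.00098 with array weights. These were 4 of 22 alternatives. The other 18 gave no call, with an adjusted p of 0.112 to 0.184 when 1 of the other 6 libraries was left out and 0.306 with sex as a covariate.

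The ratio of Myog to Myf5 set the groups apart in the same way. It was 0.0489, 1.4, 1.07 and 1.16 in trex and 4.04, 4.6, 3.44 and 2.97 in wt. So Myog was the more abundant of the 2 in each wt library and in 3 of the 4 trex libraries, by a smaller factor. In trex replicate 1 it was the less abundant.

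**Figure D2:**
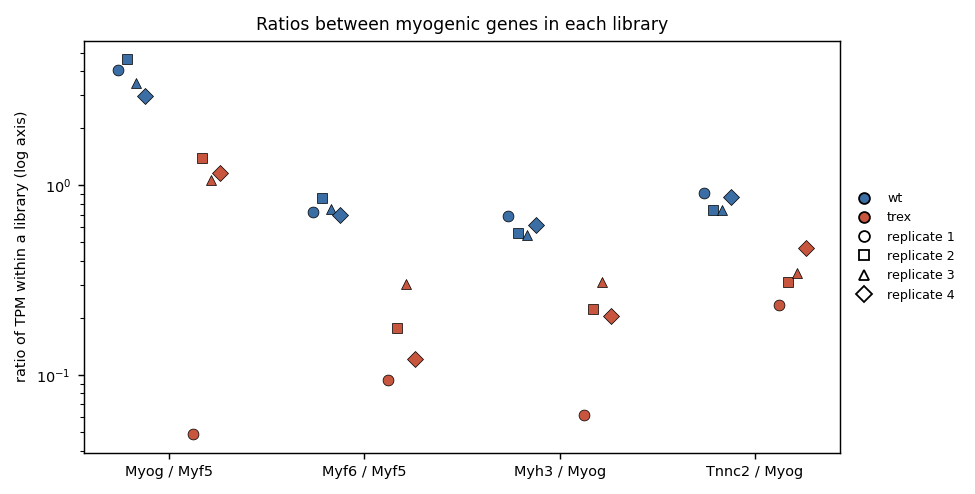
Ratios of TPM between muscle genes within each library, on a log axis, with one symbol per library. All 4 wt libraries lie above all 4 trex libraries for each ratio, and trex replicate 1 is the lowest for each. In that library Myog rests on 8 reads, Myh3 on 2 and Tnnc2 on 1.

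Mef2c, which encodes a MADS-box partner of the factors and is also expressed in heart and other tissues, measured 14.9, 11.8, 15.3 and 15.7 TPM in trex against 12.9, 15.6, 13.7 and 15.8 TPM in wt. The groups overlapped fully, the log2 difference was -0.01 ± 0.11 and the adjusted p 0.955. The direction of this small difference changed with the setting.

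The fibre genes differed among themselves. Myh3, embryonic myosin heavy chain (chromosome 11, 67078300 to 67102291), measured 0.0572, 4.36, 3.58 and 2.90 TPM in trex against 22.5, 26.6, 24.2 and 21.5 TPM in wt. Every trex library was below every wt library, and trex replicate 1 rested on 2 reads. The mean fell 8.70-fold, from 23.7 ± 2.27 to 2.72 ± 1.88 TPM (log2 difference -2.96 ± 0.45, adjusted p = 0.011).

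Tnnc2, fast skeletal troponin C (chromosome 2, 164777161 to 164779967), measured 0.217, 6.08, 4.01 and 6.60 TPM in trex against 29.4, 35.05, 32.8 and 30.3 TPM in wt. It too was lowest in trex replicate 1, which held 1 read. The mean fell 7.55-fold, from 31.9 ± 2.53 to 4.23 ± 2.90 TPM (log2 difference -2.95 ± 0.52, adjusted p = 0.0154). Without wt replicate 2 the adjusted p was 0.0617. With sex as a covariate, read from the Y-linked transcripts, the log2 difference was -1.313 for Myf6 (adjusted p = 0.0851), -2.856 for Myh3 (0.103) and -2.86 for Tnnc2 (0.123). Ube2c lies on the opposite strand within the same interval at a mean of 350.0 TPM. Whether reads were assigned by strand is not given in the sources used here. The ratio of Tnnc2 to Myh3 was 1.31 to 1.41 in wt and 1.12 to 3.79 in trex, a wider range in trex. The 3.79 came from trex replicate 1, on 1 read of Tnnc2 and 2 of Myh3. In trex replicates 2 to 4 the ratio was 1.39, 1.12 and 2.28.

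Myh3 and Tnnc2 were also compared with Myog within the groups. After the mean of each genotype was subtracted, Pearson's r with Myog over 8 libraries was 0.984 for Myh3 and 0.983 for Tnnc2, and 0.06% and 0.08% of tested genes had a higher r. For Myf6 it was 0.333 and for Myf5 -0.557. These values rest on trex replicate 1, the lowest trex library for Myog, Myh3 and Tnnc2. Without it r over 7 libraries was 0.718 for Myh3 and 0.716 for Tnnc2, and 3.59% and 3.68% of tested genes had a higher r. For Myf5 it was then 0.651, of the opposite sign. Among the 5 other genes most like Myog over 8 libraries were Letm1, Mlf2, Nans and Sqle, with r from 0.989 to 0.992. Without trex replicate 1 their r was 0.851 to 0.95. For Acta1 r with Myog was 0.412 over 8 libraries and -0.567 over 7, and for Tnni2 0.693 and -0.466. Relative to Myog, Myh3 and Tnnc2 were also scarcer in trex. The ratio of Myh3 to Myog was 0.0617 to 0.309 in trex and 0.544 to 0.692 in wt. That of Tnnc2 to Myog was 0.234 to 0.467 in trex and 0.737 to 0.906 in wt. Trex replicate 1 was the lowest for both, on 2 reads of Myh3, 1 of Tnnc2 and 8 of Myog. In trex replicates 2 to 4 these ratios were 0.205 to 0.309 and 0.31 to 0.467. Other fibre genes were not set against Myog by ratio.

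Myh8, perinatal myosin heavy chain from the same cluster, was near the limit of detection. It held 2 to 5 reads per trex library and 7 to 11 per wt library, which gave 0.0289 to 0.0736 TPM and 0.102 to 0.160 TPM. The groups did not overlap, but the counts were small.

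Acta1 and Tnni2 behaved differently from Myh3 and Tnnc2. Acta1, skeletal alpha-actin, which the early heart also expresses (chromosome 8, 123891769 to 123894751), measured 6.32, 6.22, 34.7 and 48.5 TPM in trex against 29.35, 41.0, 45.9 and 58.2 TPM in wt. Replicates 1 and 2 of trex were far below every wt library, whereas replicates 3 and 4 lay within the wt range. The means were 23.9 ± 21.2 and 43.6 ± 11.9 TPM (log2 difference -1.31 ± 0.63, adjusted p = 0.207). Tnni2, fast skeletal troponin I, measured 0.232, 1.86, 3.40 and 5.12 TPM in trex against 2.34, 2.83, 2.86 and 6.55 TPM in wt, and the groups overlapped (adjusted p = 0.515).

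The level of heart markers varied between libraries and, like these 2 genes, was highest in replicate 4 of each genotype. The cardiomyocyte list stood at a mean log2(TPM + 1) of 2.44, 2.44, 4.68 and 4.86 in trex replicates 1 to 4 and at 2.24, 3.62, 3.08 and 4.56 in wt replicates 1 to 4. Its summed level spanned 185.3 to 1713 TPM (trex) and 145.1 to 1522 TPM (wt). At the low end of the list, wt replicate 1 held 29.35 TPM of Acta1, and trex replicates 1 and 2 held 6.32 and 6.22 TPM. Within wt, replicate 3 held more Acta1 than replicate 2 at a lower heart level, and Tnni2 was 2.34 to 2.86 TPM in replicates 1 to 3. Actc1, cardiac alpha-actin and also the early actin of skeletal muscle, measured 544 ± 541 TPM in trex against 586 ± 434 TPM in wt, and Tnnt2, cardiac troponin T, 26.7 ± 23.6 and 31.8 ± 25.1 TPM. Neither was called without a covariate. With the mean level of the cardiomyocyte list as a covariate, an alternative chosen after seeing the data, the log2 difference of Acta1 was -1.504 with an adjusted p of 0.02. That gain was shared by heart genes, with -0.73 for Tnnt2 (0.00843), itself 1 of the 19 markers, and -1.075 for Actc1 (0.0255). The same covariate gave -0.63 for Tnni2 (adjusted p = 0.172), -3.01 for Myh3 (0.0129), -3.02 for Tnnc2 (0.0165), -1.51 for Myf6 (0.0112) and -2.19 for Myog (0.0735).

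**Figure D3:**
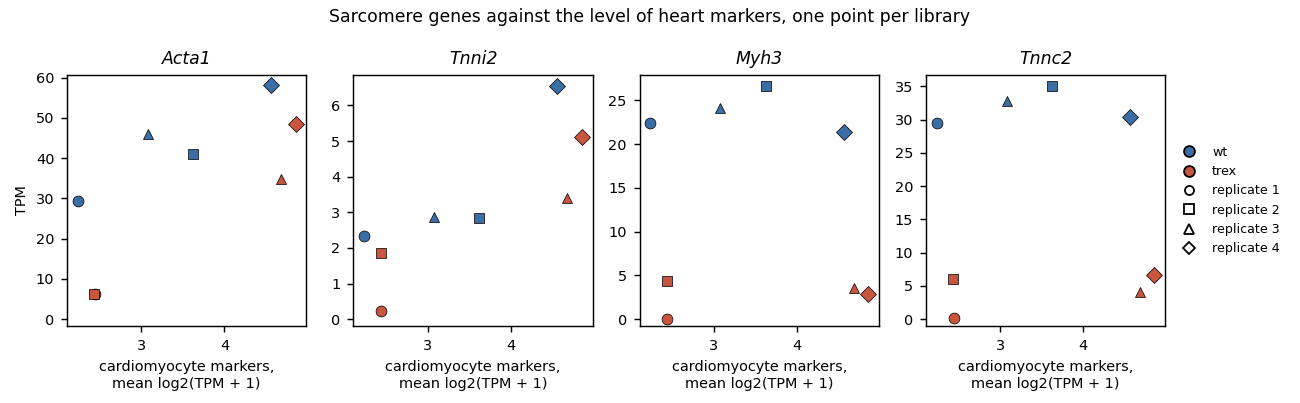
TPM of 4 sarcomere genes against the mean log2(TPM + 1) of 19 cardiomyocyte markers, one point per library. Acta1, Tnni2 and the heart markers are all highest in replicate 4 of each genotype. At the low end of the axis Acta1 is at 29.35 TPM in wt replicate 1 and at 6.32 and 6.22 TPM in trex replicates 1 and 2. Myh3 and Tnnc2 reach at most 6.60 TPM in any trex library at either end of that axis.

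Other genes of the muscle fibre were lower in part. Of 24 genes of the skeletal muscle fibre 14 were tested, of which 4 fell and none rose, where 3.77% of all tested genes fell. The median log2 difference was -0.75. Mylpf, fast skeletal myosin regulatory light chain, had the smallest p of these. It measured 12.1, 13.1, 17.2 and 15.4 TPM in trex against 54.8, 73.6, 63.7 and 59.3 TPM in wt, and fell 4.35-fold (log2 difference -2.05 ± 0.12, adjusted p = 0.000225). Its spread within trex was small, and trex replicate 1 did not stand apart. Atp2a1, the calcium pump of fast fibres, fell 2.33-fold, Klhl41 3.69-fold and Mybph 4.50-fold, the last named after its values were seen. The light chain gene Myl1 measured 2.05 ± 2.08 TPM in trex against 4.68 ± 1.78 TPM in wt, with no call (adjusted p = 0.18). Leaving out wt replicate 2, 3 or 4 ended the calls of Klhl41 (adjusted p up to 0.0709) and Mybph (up to 0.0759).

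Genes of fusion and differentiation of myoblasts were lower in part. Of 12 tested genes 4 fell and none rose, beside 3.77% and 4.94% of all tested genes. Their median log2 difference was -0.36. Mymk and Mymx, the fusion proteins myomaker and myomixer, held no read in trex replicate 1. Mymk measured 0.70 ± 0.52 TPM in trex against 2.94 ± 0.43 TPM in wt, and Mymx 1.20 ± 0.82 and 4.10 ± 0.71. Their adjusted p-values were 0.0219 and 0.0413, and leaving out single libraries ended the call in 5 and 6 of 8 cases. Mstn, myostatin, which limits muscle growth, fell 6.80-fold, from 9.997 ± 1.81 to 1.47 ± 0.73 TPM (adjusted p = 0.00439). Jam2, an adhesion molecule gene named after its values were seen, fell 1.61-fold (adjusted p = 0.0492, ended in 7 of 8 left-out libraries).

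Where 3.77% of all tested genes fell, 1 of 7 tested genes of excitation and the neuromuscular junction did. It was Chrng, the fetal acetylcholine receptor subunit, which fell from 1.92 ± 0.563 to 0.435 ± 0.365 TPM (adjusted p = 0.0313), a call that 6 of 8 left-out libraries ended. Chrna1, untested at its low level, measured 0.118 ± 0.125 TPM in trex against 0.943 ± 0.174 TPM in wt. By contrast, none of 19 tested sarcomere genes shared by heart and skeletal muscle fell, with a median of -0.02. Of these 19, 1 rose, where 4.94% of all tested genes did. That gene was Tpm1, which measured 384 ± 56.1 TPM in trex against 262 ± 48.0 TPM in wt (adjusted p = 0.0471, ended in 6 of 8 left-out libraries). Of 19 cardiomyocyte markers 1 fell (Sln) and none rose, beside 3.77% and 4.94% of all tested genes.

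**Figure D4:**
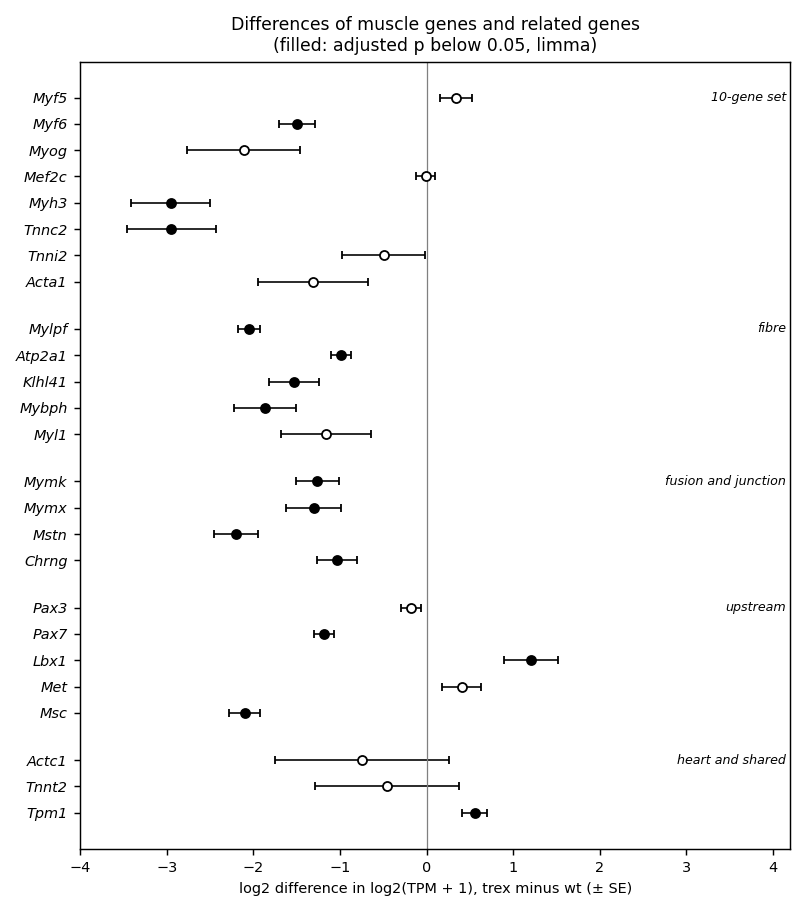
Log2 differences, trex minus wt, with their SE for 8 of the 10 genes and for genes of related lists. Filled points passed an adjusted p of 0.05 in limma; Myh3, Tnnc2, Mylpf, Mstn and Msc lie near or beyond -2, while Myf5, Mef2c and Pax3 lie between -0.18 and 0.34.

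The genes upstream of the factors did not move as a block. Of 16 genes of myotome precursors 3 fell and 1 rose, beside 3.77% and 4.94% of all tested genes. Pax3 measured 37.3 ± 7.20 TPM in trex against 41.8 ± 1.89 TPM in wt and was not among the calls. Pax7, a gene of the dermomyotome and the dorsal neural tube, was 2.54-fold lower, at 5.04 ± 0.49 TPM against 12.8 ± 1.63 TPM, and En1 and Zic1, which the neural tube also expresses, fell 3.79-fold and 1.57-fold (each call ended in 2 of 8 left-out libraries). Lbx1, of migrating limb and tongue muscle precursors and also of dorsal spinal interneurons, rose from 6.61 ± 2.30 to 17.1 ± 7.92 TPM (adjusted p = 0.047). That call was lost in each of the 8 leave-one-out fits, with adjusted p between 0.0508 and 0.138. Met, the receptor of those precursors, stood at 15.1 ± 5.84 and 10.8 ± 1.87 TPM and was not called.

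Among 7 genes of pharyngeal muscle precursors 2 fell, where 3.77% of all tested genes did. Msc, musculin, a repressor and marker of those precursors, fell 12.8-fold, from 4.90 ± 0.81 to 0.38 ± 0.25 TPM (adjusted p = 0.00133), and kept its call without each library in turn. Isl1 fell 1.39-fold (adjusted p = 0.0276, ended in 4 of 8 left-out libraries). Tbx1 measured 19.3 ± 7.09 TPM in trex against 22.1 ± 5.15 TPM in wt and was likewise uncalled.

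Partners and inhibitors of the factors differed in direction. Of 14 E protein, Mef2 and cofactor genes 2 rose, where 4.94% of all tested genes did, and none fell. Mef2d rose 1.43-fold and Tead4 1.27-fold, and leaving out single libraries ended these calls in 4 and 6 of 8 cases. Mef2a was not called. Of 14 genes whose products can restrain the factors 6 rose, where 4.94% of all tested genes did, and 1 fell. Twist1 rose from 255 ± 8.98 to 330 ± 11.2 TPM (adjusted p = 0.00489), Snai2 1.85-fold and Hes1 1.46-fold. The call of Snai2 ended without wt replicate 2 (0.0549) and that of Hes1 in 3 of 8 left-out libraries. These genes are also expressed in neural crest and other mesenchyme. Among 13 tested sclerotome and other somite genes 3 rose, Uncx and Foxc2 among them, and 1, Lfng, fell. Over all tested genes 4.94% rose and 3.77% fell. The calls of Uncx and Lfng ended in 4 and that of Foxc2 in 5 of 8 left-out libraries.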

How the data were processed

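The deposited table holds TPM values, 1 column per library, with equal column sums. CASAVA 1.8.2, STAR and the mm10 build are named, per the submitters' processing notes. Per the labels' protocols, libraries were poly-A selected and stranded. The sources used here give neither the read counter nor the gene lengths. Symbols, coordinates and exonic lengths came from GENCODE M21, where 55240 of 55421 identifiers matched. Multiplying TPM by length gave whole multiples of 1 read, within 0.001, for 98.7% to 98.9% of low values (up to 200 reads), and these recovered reads served for depth, for low counts and for an alternative.

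Genotypes were compared two-sided on log2(TPM + 1) by the trend version of limma (3.58.1, under R 4.3.3), for genes with a mean of at least 1 TPM, with Benjamini-Hochberg adjustment over 15717 genes. Every adjusted p is from this fit unless another setting or a left-out library is named with it. Log2 differences on this scale understate changes of weak genes. Folds are ratios of mean TPM. The step was tested on simulated data. The genes and the 14 lists were chosen with earlier results of these data known. The named genes are the 10, the 3 tested genes of smallest p in each list, and a fixed set of 18 others; not all are printed, and some are not reported here. The 21 alternatives fixed beforehand covered pseudocounts of 0.1 and 5, filters, scalings, eBayes options, array weights, replicate block, sex, voom and leaving out each library. The cardiomyocyte covariate, and the likeness to Myog without trex replicate 1, were added after seeing the data.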

Additional observations from a re-analysis of the deposited data

Results flagged for a closer look

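Dixon's criterion set 1 library apart in 3 of 48 groups of 4 values, where chance gives about 1 in 20. Tnni2 had 6.55 TPM in wt replicate 4, where the other wt libraries held 2.34 to 2.86 TPM. That library also had the highest cardiomyocyte level of wt, 4.56. The mean log2 level of fusion and differentiation genes was 3.96 in trex replicate 1 and 4.29 to 4.35 in the other trex libraries. The mean log2 level of the partners and Mef2 family was 4.765 in wt replicate 1, where the other wt libraries held 4.742 to 4.744.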

How the results depend on the processing

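Of the 10 genes, 3 were called lower. With single libraries left out the count was 2 (without wt replicate 2) to 4 (without trex replicate 1 or 2), with sex as a covariate it was 0, and under the other settings it was 3 or 4. No setting run called any of them higher. The 1369 calls over all genes became 694 without a filter, 5524 with array weights and 39 with sex as a covariate, and 201 (without wt replicate 2) to 2911 (without trex replicate 2) with single libraries left out. The wt titles are numbered 5 to 8, so replicates 1 to 4 of wt follow title order, and the labels name no pairs. Deviations from the group mean of libraries with the same replicate number correlated at 0.162, -0.023, -0.004 and 0.252. Of 8 libraries 4 correlated best with their own number. The numbers were not taken as pairs. A fit with the replicate block made 687 calls. The 4 skeletal fibre genes called lower became 8 without a filter, 2 at a mean TPM of 5, 7 with array weights, 1 with sex and 7 with the cardiomyocyte level as a covariate, and 2 (without wt replicate 2, 3 or 4) to 6 (without trex replicate 1) with single libraries left out. Log2 differences that were not called changed sign with array weights for Tnni2 (0.017), Mef2c (0.044), Actc1 (0.663) and Tnnt2 (0.577), and with sex as a covariate for Mef2c (0.003). With single libraries left out they ranged from -0.061 to 0.075 for Mef2c and from -0.943 to 0.034 for Tnnt2. Pearson's r of Myf5 with Myog within groups was 0.651 without trex replicate 1 and -0.557 with it. The causes were not tested. Myod1 and Myh8 rest on at most 11 reads in any library.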

Other observations

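A pair of related genes had their highest value in trex replicate 1, where Myog was lowest. Cdon, a receptor of myoblasts and neural tissue, had 125.0 TPM there and 64.5 to 69.9 TPM in the other trex libraries. Mef2b reached 9.26 TPM in that library and at most 1.70 TPM in the other 7. In Bhlhe40, a transcription factor gene induced by low oxygen among other signals, trex replicate 2 lay near wt and the other 3 trex libraries above it. It measured 69.2, 3.99, 29.1 and 49.3 TPM in trex replicates 1 to 4 and 4.19 to 4.69 TPM in wt. These genes were singled out after their values were seen. None of these 3 was called in limma; the adjusted p of Bhlhe40 was 0.0762.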
